A study of Homo sapiens with 4 samples.

Results

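The genes described here are 48 components of the pathways that mend DNA double-strand breaks and DNA interstrand crosslinks, out of 58735 genes counted in all. They were named by function and matched by symbol in the GENCODE 29 annotation, and each matched 1 gene: 20 of homologous recombination, 11 of the Fanconi pathway, 9 of end joining and linked strand-break repair, 2 of mismatch repair and 6 of the checkpoint. The libraries came from the hepatocellular carcinoma line MHCC97-H, a human line with genotype WT in the labels of all 4, either after 16 h with clofazimine (2 libraries) or with no treatment (2 libraries). The sample labels give 40 uM of clofazimine, an antimycobacterial drug, where the series text gives 30 uM. The labels name no vehicle for the untreated cells, and nothing in them tells if the replicates grew as separate cultures. The p-values therefore reflect the spread among these libraries alone, which may be technical. The question addressed is how clofazimine changed gene transcription in these cells.

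A broken chromosome can be rejoined directly, by end joining, or copied from the intact sister chromatid, by homologous recombination, which works in S and G2 phase. Crosslinks that tie the DNA strands together are recognised by the Fanconi core complex, which marks FANCD2 and FANCI with ubiquitin and so calls in nucleases and the recombination machinery. The kinases ATM and ATR sense breaks and exposed single-stranded DNA and act through CHEK2 and CHEK1 to hold the cell cycle. Mismatch repair removes replication errors and also meets several of these factors at damaged DNA. Many of these genes are transcribed in proliferating cells under E2F control.

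Library totals lay between 13543437 and 16860578 counts, and the levels below are CPM, read counts scaled to a common library size with TMM normalisation. Keratin genes of the epithelial line were high, with KRT8 at 1093 and 1239 CPM in clofazimine libraries and 1106 and 1272 CPM in untreated libraries, while the liver genes AFP, ALB and TTR had 0 counts in all 4. The leukocyte markers PTPRC and LYZ and the endothelial marker KDR also had 0 counts. The 4 endothelial markers together came to 5.99 and 5.77 CPM in clofazimine libraries and 25.5 and 32.8 CPM in untreated libraries, of which PECAM1 made 5.29 and 4.72 CPM after clofazimine and 22.9 and 28.9 CPM untreated, and their part in the results was not tested. In bulk libraries, fewer cells of a kind and less RNA per cell cannot be told apart.

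All 48 repair genes passed the filter on low counts, and most changes were under 2-fold. After clofazimine 9 rose, 17 fell and 22 did not pass the test (adjusted p under 0.05 in edgeR). Over all 16388 genes tested 59.9% were called, 29.5% higher and 30.4% lower, so 54.2% of repair genes called is near the background, with 18.8% higher and 35.4% lower. Their median log2 fold change was -0.14, beside -0.03 over all genes tested. A change of at least 2-fold was called in 1 repair gene upward (RAD54B) and 2 downward (PARP1 and ATRIP), where the background was 10.5% upward and 15.9% downward. The clofazimine and untreated libraries did not overlap for 19 repair genes in the higher and 20 in the lower direction, beside backgrounds of 39.2% and 41.6% (80.8% for either direction). When library totals replaced TMM, the median of all genes moved to -0.20, and 4 repair genes were higher and 23 lower, with their own median then at -0.31. Fewer repair genes were called higher without untreated replicate 1 (5) or untreated replicate 2 (4), and fewer lower without untreated replicate 1 (11), and without clofazimine replicate 1 their median came to -0.08. The directions below are therefore relative to the TMM scale.

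**Figure D1:**
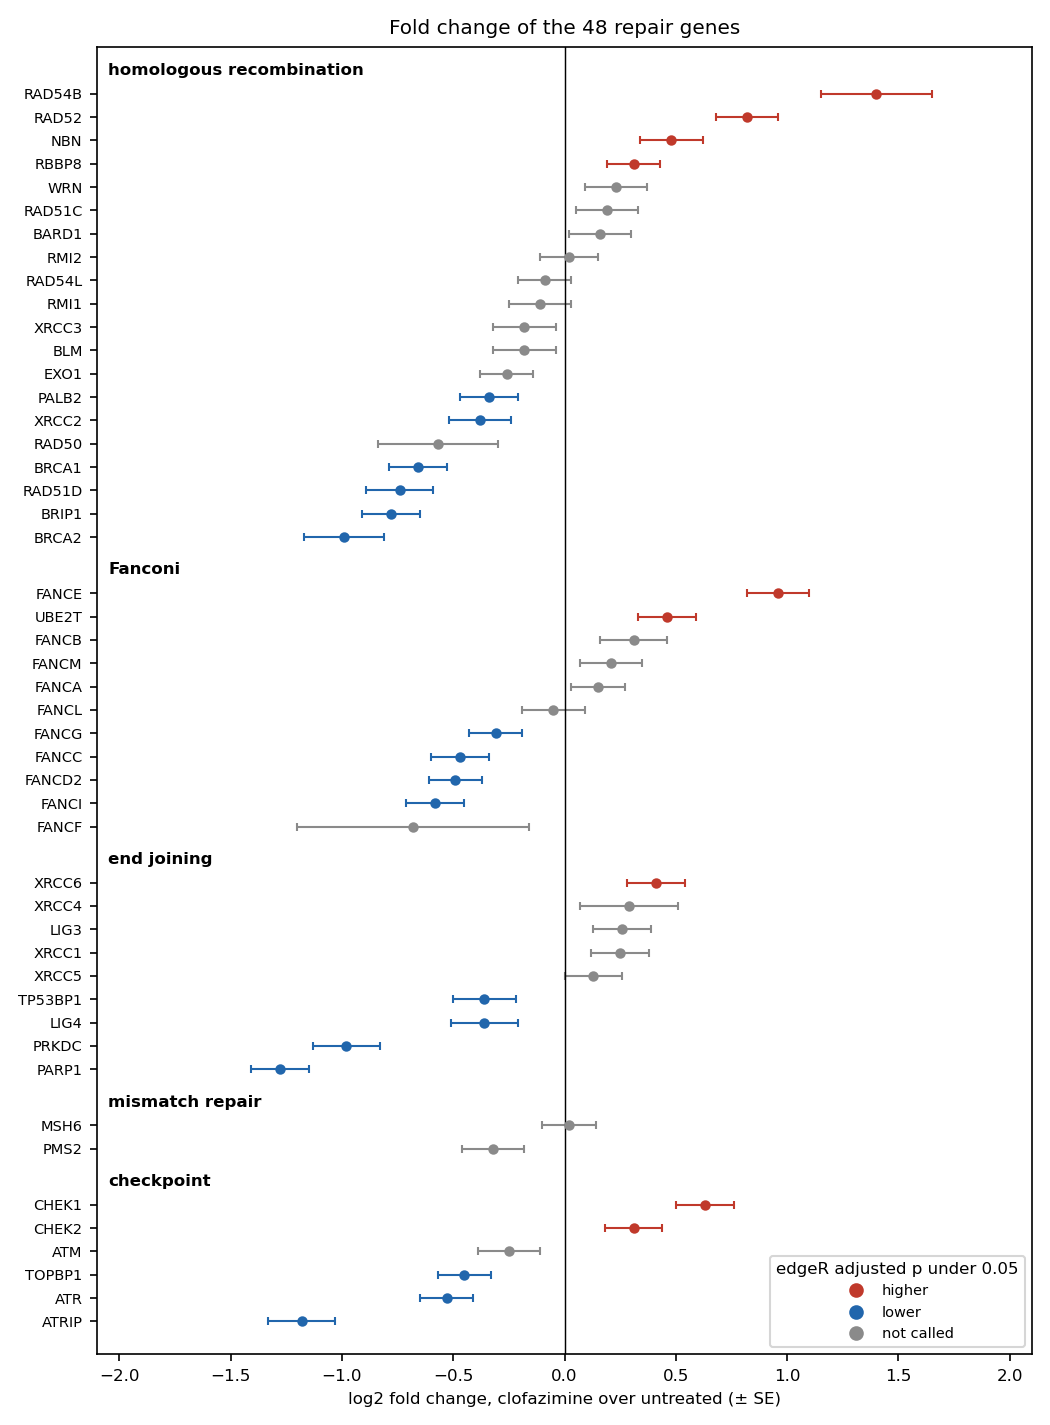
Log2 fold change of each repair gene, clofazimine over untreated, with its standard error (2 libraries per group), sorted within the 5 groups. Red marks the 9 genes that rose, blue the 17 that fell and grey the 22 not called at an edgeR adjusted p under 0.05. Most points lie between -1 and 1, with RAD54B at 1.40 and PARP1 at -1.28 at the ends.

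Of the 26 calls, 12 held under all 13 alternative settings tried, 3 upward and 9 downward. RAD52, RAD54B and FANCE rose, and BRCA1, BRCA2, BRIP1, FANCD2, FANCI, PRKDC, PARP1, ATR and ATRIP fell. Over those settings the highest adjusted p of these 12 was 0.034. The other 14 calls ended under at least 1 setting, and the settings given below for each include every single library whose omission ended it.

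RefSeq promoter windows, running from 250 bases before to 50 after a transcription start on GRCh38.p14, were at hand for 41 of the 48 genes, in 62 windows. An E2F word, which was TTCCCGC, or else TTGGCGC, or else TTCGCGC, or else TTGCCGC, on either strand, stood in 31 of these windows, 50%, against 4553 of 35116 windows of all genes, 13%. The CCAAT box, written CCAAT, stood in 46.8% against 34.6%, and the words TTTGAA or TTCGAA of the cell cycle homology region in 8.06% against 16.4%, again on either strand. By call, an E2F word was found for 3 of 7 genes that rose, 9 of 15 that fell and 12 of 19 not called. A match of letters is a description and not a binding site. Windows are printed for 2 genes that fell (PARP1 and TOPBP1), 2 that rose (FANCE and XRCC6) and 1 not called (BLM), with the E2F words in capitals, to show the same words beside opposite changes. In TOPBP1 the capitals cover 2 overlapping words.
PARP1, chr1:226408044-226408343, minus strand: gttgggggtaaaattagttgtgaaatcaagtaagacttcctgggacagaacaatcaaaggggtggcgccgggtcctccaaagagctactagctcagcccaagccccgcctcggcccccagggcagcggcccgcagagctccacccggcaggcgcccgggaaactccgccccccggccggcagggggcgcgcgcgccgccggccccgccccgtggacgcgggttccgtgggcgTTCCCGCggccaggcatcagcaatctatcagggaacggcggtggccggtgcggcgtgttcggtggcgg
TOPBP1, chr3:133661892-133662191, minus strand: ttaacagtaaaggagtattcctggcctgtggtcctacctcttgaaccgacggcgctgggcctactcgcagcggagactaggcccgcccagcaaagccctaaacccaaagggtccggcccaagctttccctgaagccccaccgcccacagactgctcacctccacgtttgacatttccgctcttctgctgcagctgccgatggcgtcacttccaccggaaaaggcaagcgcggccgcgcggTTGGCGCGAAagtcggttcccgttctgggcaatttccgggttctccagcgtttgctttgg
FANCE, chr6:35452088-35452387, plus strand: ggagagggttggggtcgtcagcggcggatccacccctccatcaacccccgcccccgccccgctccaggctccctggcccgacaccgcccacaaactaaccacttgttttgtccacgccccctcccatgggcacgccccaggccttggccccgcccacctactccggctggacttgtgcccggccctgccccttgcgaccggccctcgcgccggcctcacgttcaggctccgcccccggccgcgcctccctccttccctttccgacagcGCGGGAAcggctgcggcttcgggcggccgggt
XRCC6, chr22:41621045-41621344, plus strand: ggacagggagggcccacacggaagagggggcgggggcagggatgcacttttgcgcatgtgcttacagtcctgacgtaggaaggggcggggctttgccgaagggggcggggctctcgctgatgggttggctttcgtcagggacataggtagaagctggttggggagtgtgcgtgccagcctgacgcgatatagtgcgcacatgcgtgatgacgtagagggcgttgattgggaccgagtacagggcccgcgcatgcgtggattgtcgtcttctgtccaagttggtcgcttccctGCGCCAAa
BLM, chr15:90717096-90717395, plus strand: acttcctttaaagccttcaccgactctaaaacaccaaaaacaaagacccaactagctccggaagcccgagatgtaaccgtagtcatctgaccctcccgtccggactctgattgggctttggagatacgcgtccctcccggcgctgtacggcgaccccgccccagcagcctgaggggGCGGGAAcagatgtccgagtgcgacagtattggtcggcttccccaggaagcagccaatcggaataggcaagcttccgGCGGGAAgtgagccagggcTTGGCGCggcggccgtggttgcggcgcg

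In homologous recombination 4 of 20 genes rose, 6 fell and 10 were not called, at a median log2 fold change of -0.14. That median was -0.08 without clofazimine replicate 1 and -0.31 under library totals, and 2 genes were higher without untreated replicate 2. The genes that fell were 4 of the 5 of the BRCA complexes, RAD51D and XRCC2. Those that rose were RAD52 and RAD54B and the resection genes NBN and RBBP8.

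Among the BRCA complexes, BRCA2 (ENSG00000139618, chromosome 13, 32315474 to 32400266), which acts on resected single-stranded DNA in recombination, had 16.8 and 11.5 CPM in clofazimine libraries, against 30.6 and 25.4 CPM in untreated libraries. It was 1.98-fold lower (log2 fold change -0.99 ± 0.18, SE, edgeR adjusted p 1.61e-04), and the groups did not overlap. BRIP1, a helicase that binds BRCA1, had 33.3 and 31.7 CPM in clofazimine libraries and 59.4 and 52.5 CPM in untreated libraries (-0.78 ± 0.13, edgeR adjusted p 6.59e-05). BRCA1, a ubiquitin ligase that promotes end resection, had 74.1 and 70.3 CPM in clofazimine libraries and 128 and 100.3 CPM in untreated libraries (-0.66 ± 0.13, edgeR adjusted p 4.03e-04). Both clofazimine libraries lay below both untreated libraries for each of these genes. PALB2, the bridge between BRCA1 and BRCA2, had 37.5 and 34.3 CPM after clofazimine against 47.6 and 43.1 CPM untreated, a smaller change (-0.34 ± 0.13, edgeR adjusted p 0.0316). The PALB2 call ended under 5 of the 13 settings, among them the omission of untreated replicate 1 (-0.28), untreated replicate 2 (-0.42) or clofazimine replicate 2 (-0.26). BARD1, the obligate partner of BRCA1, was the member not called, at 36.0 and 34.4 CPM after clofazimine and 34.2 and 28.9 CPM untreated (0.16 ± 0.14).

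RAD51C, RAD51D, XRCC2 and XRCC3 encode related proteins that act together in recombination, and 2 of these 4 genes fell. RAD51D had 17.8 and 20.8 CPM in clofazimine libraries, against 34.6 and 29.9 CPM in untreated libraries (-0.74 ± 0.15, edgeR adjusted p 4.24e-04). When the libraries were corrected for the exon length and GC content of each gene, the log2 fold change of RAD51D was -0.29 and the call ended, also together with a replicate block (-0.29). XRCC2, which binds RAD51D, had 29.5 and 28.3 CPM after clofazimine and 41.5 and 33.5 CPM untreated (-0.38 ± 0.14, edgeR adjusted p 0.0286). Its groups did not overlap, but the call ended without untreated replicate 1 (-0.23), clofazimine replicate 1 (-0.39) or clofazimine replicate 2 (-0.33), and without a filter or with DESeq2. XRCC3 (-0.18) and RAD51C (0.19), which pair with each other, were not called. Of XRCC3's exon bases 76.7% lie opposite KLC1, and no source used here tells whether reads were counted by strand.

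RAD52 encodes a strand-annealing protein, and the RAD54 genes encode translocases that move along DNA during recombination. RAD54B (ENSG00000197275, chromosome 8, 94371960 to 94475109) had 7.77 and 6.82 CPM in clofazimine libraries, against 2.68 and 2.83 CPM in untreated libraries. This was the largest rise among the repair genes under TMM, 2.64-fold (1.40 ± 0.25, edgeR adjusted p 1.48e-04). It shares 59.1% of its exon bases with FSBP on the same strand, which itself had 3 and 5 counts after clofazimine and 1 and 0 untreated, so how their reads were split is uncertain. RAD52 (ENSG00000002016, chromosome 12, 912077 to 990053) had 34.4 and 38.5 CPM after clofazimine and 21.1 and 20.2 CPM untreated, 1.77-fold higher (0.82 ± 0.14, edgeR adjusted p 8.14e-05). RAD54L, the main translocase in dividing cells, was not called, at 52.5 and 47.5 CPM after clofazimine and 53.9 and 52.2 CPM untreated (-0.09 ± 0.12), and its groups overlapped.

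In end resection, which exposes the single strand that searches for a template, the genes split. NBN, the signalling subunit of the MRN complex, had 46.2 and 52.6 CPM in clofazimine libraries, against 38.9 and 31.9 CPM in untreated libraries (0.48 ± 0.14, edgeR adjusted p 0.00589). RBBP8, which encodes the resection factor CtIP, had 64.9 and 75.1 CPM after clofazimine and 59.0 and 53.6 CPM untreated (0.31 ± 0.12, edgeR adjusted p 0.0362). Both rose without overlap, and both calls ended after correction for length and GC, at 0.12 for NBN and 0.01 for RBBP8. The NBN call also ended under library totals (0.32) and without untreated replicate 2 (0.33). The RBBP8 call ended without untreated replicate 1 (0.36), untreated replicate 2 (0.23) or clofazimine replicate 2 (0.22), under library totals (0.15), without a filter and with DESeq2. RAD50, the other MRN subunit listed, had 6.53 and 3.67 CPM after clofazimine and 8.79 and 6.23 CPM untreated (-0.57 ± 0.27, edgeR adjusted p 0.0769), with overlapping groups. RAD50 was called lower without clofazimine replicate 1 (-1.01) or untreated replicate 2 (-0.81), while it was at -0.19 without clofazimine replicate 2 and -0.32 without untreated replicate 1. Of its exon bases 79.7% are shared with AC116366.3 on the same strand, a gene that had 1 to 5 counts per library. The exonuclease EXO1 was at -0.26 ± 0.12 and not called. The helicase BLM (-0.18) and its partners RMI1 (-0.11) and RMI2 (0.02), which together dissolve joined recombination intermediates, did not pass the test. The related helicase WRN had 36.0 and 34.2 CPM after clofazimine and 32.2 and 27.5 CPM untreated (0.23 ± 0.14, not called). After correction for length and GC, BLM (-0.40), RMI1 (-0.58), EXO1 (-0.43) and RAD50 (-0.70) were called lower, and under library totals BLM (-0.35), EXO1 (-0.43), RAD50 (-0.74) and XRCC3 (-0.35) were.

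In the Fanconi pathway 2 of 11 genes rose, 4 fell and 5 were not called (54.5% called, beside 59.9% of all genes tested). The median was -0.05. That median was 0.06 without clofazimine replicate 1 and 0.04 with the 1 CPM filter, but -0.15 without clofazimine replicate 2, -0.13 without untreated replicate 2, -0.17 after correction for length and GC and -0.22 under library totals. It was -0.01 without untreated replicate 1, where 1 gene was higher and 2 were lower. The E2 enzyme and the substrate complex moved apart. FANCI had 216 and 189.6 CPM in clofazimine libraries, against 315 and 291 CPM in untreated libraries (-0.58 ± 0.13, edgeR adjusted p 9.26e-04). FANCD2, its partner in the clamp that closes on DNA, had 70.9 and 70.4 CPM after clofazimine and 102 and 97.0 CPM untreated (-0.49 ± 0.12, edgeR adjusted p 0.00154). UBE2T, the enzyme that supplies the ubiquitin for both, had 67.9 and 88.8 CPM after clofazimine and 54.5 and 59.6 CPM untreated, which was a rise (0.46 ± 0.13, edgeR adjusted p 0.00775). The clofazimine libraries lay below the untreated ones for the substrates and above them for the enzyme. The UBE2T call ended when untreated replicate 1 (0.37) or clofazimine replicate 2 (0.26) was left out, without a filter, under library totals (0.29) and after correction for length and GC (0.12).

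Within the Fanconi core complex, FANCE (ENSG00000112039, chromosome 6, 35452356 to 35467103), the subunit that contacts FANCD2, had 32.9 and 38.0 CPM in clofazimine libraries and 19.0 and 17.5 CPM in untreated libraries. It was 1.94-fold higher (0.96 ± 0.14, edgeR adjusted p 2.80e-05). FANCC, which binds FANCE, went the other way, at 28.8 and 25.2 CPM after clofazimine against 38.2 and 36.6 CPM untreated (-0.47 ± 0.13, edgeR adjusted p 0.00647). Its call ended without untreated replicate 1 (-0.46) and after correction for length and GC (-0.20). FANCG, a scaffold subunit, had 47.6 and 45.2 CPM after clofazimine and 58.1 and 56.8 CPM untreated (-0.31 ± 0.12, edgeR adjusted p 0.0343). The FANCG call ended under 7 of the 13 settings, among them without untreated replicate 1 (-0.31), untreated replicate 2 (-0.34) or clofazimine replicate 2 (-0.26) and after correction for length and GC (-0.10). The subunits FANCA (0.15), FANCB (0.31) and FANCL (-0.05), the ubiquitin ligase of the complex, and the translocase FANCM (0.21) were not called. After correction for length and GC, FANCA was called higher (0.59) and FANCL lower (-0.47), and 23.6% of the exon bases of FANCA lie opposite ZNF276, which itself rose (0.92). FANCF was counted 5 and 12 times after clofazimine and 20 and 14 times untreated (-0.68 ± 0.52), too few to show a change of this size at this depth.

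In end joining 1 of 9 genes rose, 4 fell and 4 were not called (55.6% called, beside 59.9% of all genes tested). The median log2 fold change was 0.13. Library totals turned that median to -0.04, and the correction for length and GC to -0.07, while the mean was -0.18. It was 0.06 without clofazimine replicate 2, and 2 genes were lower without that library or without untreated replicate 1. This group held the repair genes with the highest levels per exon length. XRCC6, which encodes Ku70, averaged 175 CPM per kb of exon in clofazimine and 131 in untreated libraries. PRKDC, which encodes the kinase DNA-PKcs that Ku recruits to an end, averaged 52.9 CPM per kb after clofazimine and 105 untreated. XRCC5, which encodes Ku80, averaged 59.7 CPM per kb after clofazimine and 54.6 untreated.

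PARP1 (ENSG00000143799, chromosome 1, 226360691 to 226408079), the sensor of strand breaks that marks proteins with poly(ADP-ribose), had 149 and 162 CPM in clofazimine libraries, against 376 and 379.8 CPM in untreated libraries. The fall was 2.43-fold (-1.28 ± 0.13, edgeR adjusted p 3.26e-07), the largest drop and the smallest adjusted p among the repair genes under TMM, and over the alternatives it lay between -1.45 and -1.05. Its partners in single-strand break repair were not called, with the scaffold XRCC1 at 41.3 and 41.2 CPM after clofazimine and 36.4 and 32.9 CPM untreated (0.25 ± 0.13, not called). The ligase LIG3 was at 62.6 and 53 CPM after clofazimine and 49.5 and 47.1 CPM untreated (0.26 ± 0.13, not called). After correction for length and GC, XRCC1 (0.46) and LIG3 (0.67) were called higher, as was LIG3 without clofazimine replicate 2 (0.39). Of the exon bases of LIG3 30.5% lie opposite CCT6B and RFFL, and RFFL itself rose (0.77).

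PRKDC (ENSG00000253729, chromosome 8, 47773108 to 47960183) had 925 and 707 CPM in clofazimine libraries and 1650.4 and 1575 CPM in untreated libraries, 1.98-fold lower (-0.98 ± 0.15, edgeR adjusted p 3.48e-05). The clofazimine libraries differed from each other more than the untreated ones did, and all were on their own side. XRCC6 had 548 and 600.4 CPM after clofazimine and 430.4 and 431 CPM untreated, a rise of 0.41 ± 0.13 (edgeR adjusted p 0.0106). The XRCC6 call ended without untreated replicate 1 (0.39) or untreated replicate 2 (0.40) and under library totals (0.25). XRCC5 had 309.7 and 342 CPM after clofazimine and 295 and 302 CPM untreated (0.13 ± 0.13), and it and the ligase scaffold XRCC4 (0.29 ± 0.22) were not called. LIG4, the ligase of classical end joining, had 17.5 and 17 CPM after clofazimine and 24.2 and 20.3 CPM untreated (-0.36 ± 0.15, edgeR adjusted p 0.0481). That call lay at the threshold and ended under 8 of the 13 settings, among them without untreated replicate 1 (-0.25), clofazimine replicate 1 (-0.36) or clofazimine replicate 2 (-0.33). TP53BP1, which encodes 53BP1 and steers breaks towards end joining, had 114 and 83.8 CPM after clofazimine and 128 and 126 CPM untreated (-0.36 ± 0.14, edgeR adjusted p 0.0306). The TP53BP1 call ended without untreated replicate 1 (-0.37), untreated replicate 2 (-0.39) or clofazimine replicate 2 (-0.15), without a filter, with DESeq2 and after correction for length and GC (-0.07), and the value was -0.58 without clofazimine replicate 1. Of its exon bases 28.7% lie opposite TUBGCP4.

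**Figure D2:**
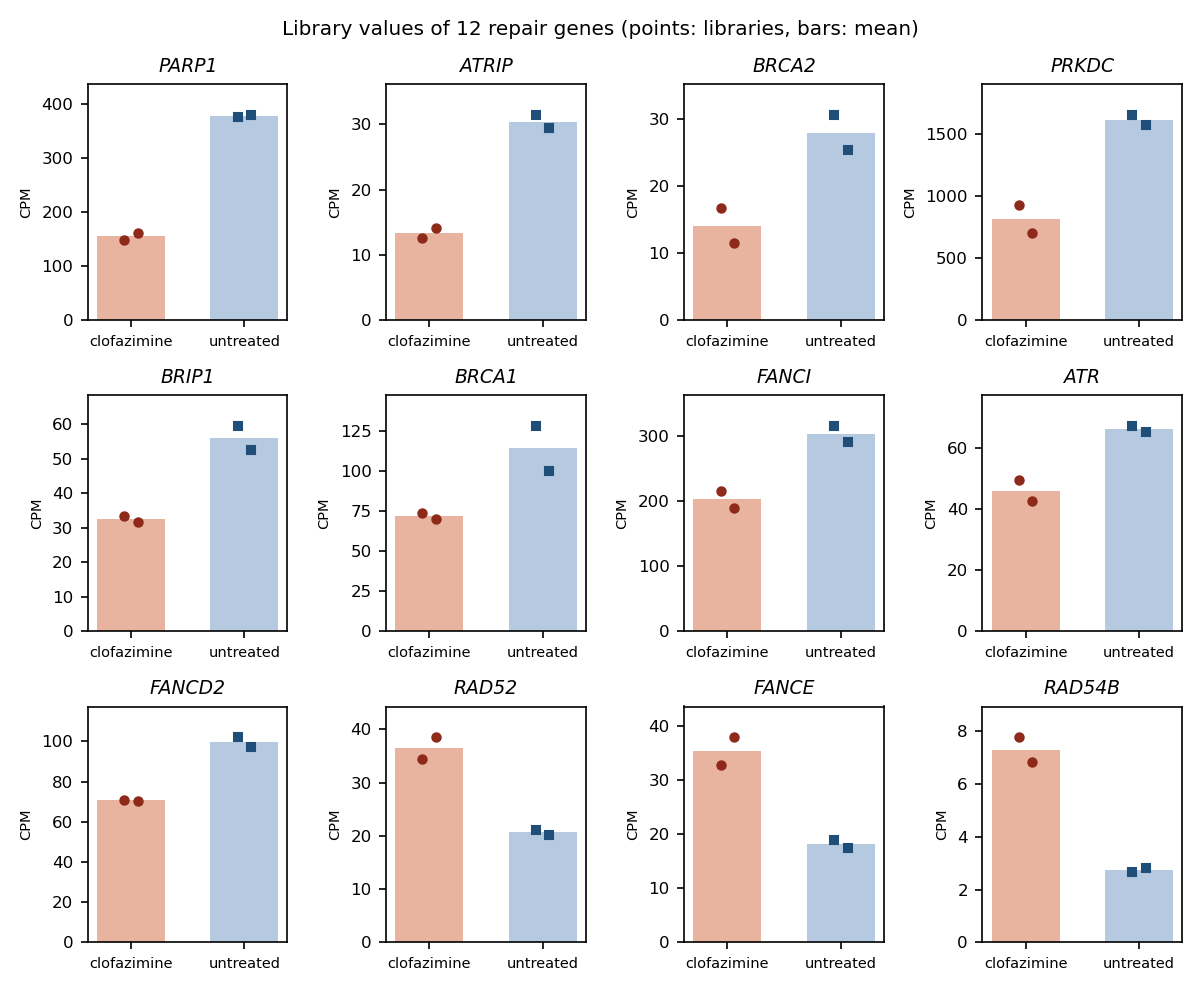
CPM of the 12 repair genes whose calls held under all alternatives, with points for the 2 clofazimine libraries (left) and the 2 untreated libraries (right) and bars for the means, each axis starting at 0. In every panel the clofazimine points lie on one side of both untreated points, with PARP1 at 149 and 162 CPM against 376 and 379.8 CPM. Choosing genes by calls that held makes this likely, and the groups did not overlap for 80.8% of all genes tested.

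Both mismatch repair genes missed the test (edgeR and DESeq2 each called 0 of 2, and 1 had an unadjusted edgeR p under 0.05). MSH6, which recognises single mispairs, had 190.3 and 197 CPM in clofazimine libraries and 192 and 188 CPM in untreated libraries (0.02 ± 0.12). PMS2, the endonuclease subunit, had 19.4 and 20 CPM after clofazimine and 25.3 and 23.9 CPM untreated (-0.32 ± 0.14, edgeR adjusted p 0.0601, unadjusted p 0.037). It was called lower under library totals (-0.49) and after correction for length and GC (-0.38). PMS2 has near-identical copies, so the division of reads among them is uncertain. Of these PMS2CL had 11.8 and 13.4 CPM after clofazimine and 15.3 and 12.7 CPM untreated (-0.15 ± 0.17, not called). The copy PMS2P3 rose, from 6.39 and 7.53 CPM untreated to 12.4 and 12.3 CPM after clofazimine (0.83 ± 0.19, edgeR adjusted p 0.00124). The part of the copies in the PMS2 values was not tested.

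In the checkpoint 2 of 6 genes rose, 3 fell and 1 was not called (83.3% called, beside 59.9% of all genes tested). The median was -0.35, and -0.18 without clofazimine replicate 2. Both calls of a rise ended without untreated replicate 2, and leaving out any of the other libraries kept 1 of them. ATRIP, ATR and TOPBP1 fell, and the effector kinase genes CHEK1 and CHEK2 rose. ATRIP (ENSG00000164053, chromosome 3, 48446710 to 48467645), which brings ATR to coated single-stranded DNA, had 12.6 and 14.2 CPM in clofazimine libraries, against 31.4 and 29.4 CPM in untreated libraries. It was 2.26-fold lower (-1.18 ± 0.15, edgeR adjusted p 5.26e-06), and 27.9% of its exon bases are shared with TREX1, a same-strand gene with 0 counts in all 4 libraries. ATR itself had 49.3 and 42.5 CPM after clofazimine and 67.0 and 65.2 CPM untreated (-0.53 ± 0.12, edgeR adjusted p 0.00151). TOPBP1, the activator of ATR, had 116 and 99.4 CPM after clofazimine and 144 and 149 CPM untreated (-0.45 ± 0.12, edgeR adjusted p 0.00452), and that call ended without untreated replicate 2 (-0.44). For all of these the clofazimine libraries were below the untreated ones. CHEK1, the effector kinase downstream of ATR, had 78.0 and 93.1 CPM in clofazimine libraries and 61.0 and 49.9 CPM in untreated libraries (0.63 ± 0.13, edgeR adjusted p 7.14e-04), a call that ended without untreated replicate 2 (0.47). CHEK2, the effector downstream of ATM, had 37.2 and 36.7 CPM after clofazimine and 31.1 and 28.5 CPM untreated (0.31 ± 0.13, edgeR adjusted p 0.0483). The CHEK2 call lay at the threshold and ended under 10 of the 13 settings, among them leaving out untreated replicate 1 (0.36), untreated replicate 2 (0.23), clofazimine replicate 1 (0.32) or clofazimine replicate 2 (0.33). ATM had 80.7 and 59.1 CPM after clofazimine and 86.8 and 79.4 CPM untreated (-0.25 ± 0.14, not called, groups overlapping), and was called lower without clofazimine replicate 1 (-0.47), under library totals (-0.42) and after correction for length and GC (-0.30).

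Because partners in a complex or a pathway can move apart, the ratio of their counts per exon length was taken in each library. This was done for 13 pairs, chosen after the values were seen and given without a test. BRCA1 to BARD1 was 1.36 and 1.35 in clofazimine libraries, against 2.47 and 2.29 in untreated libraries. ATRIP to ATR was 0.588 and 0.771 after clofazimine and 1.08 and 1.04 untreated, and PRKDC to XRCC5 was 1.06 and 0.732 after clofazimine and 1.98 and 1.85 untreated. In these pairs the ratios of the groups lay apart, with the clofazimine libraries lower. Choosing pairs after the values were seen makes such a gap likely, and no share over other gene pairs was taken. UBE2T to FANCD2 was 4.85 and 6.39 after clofazimine and 2.71 and 3.12 untreated, and CHEK1 to ATR was 3.02 and 4.18 after clofazimine and 1.74 and 1.46 untreated, where the clofazimine libraries were higher. FANCD2 to FANCI was 0.304 and 0.344 after clofazimine and 0.300 and 0.309 untreated. XRCC1 to LIG3 was 2.46 and 2.90 after clofazimine and 2.75 and 2.61 untreated. These were the only pairs of the 13 in which the groups overlapped.

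**Figure D3:**
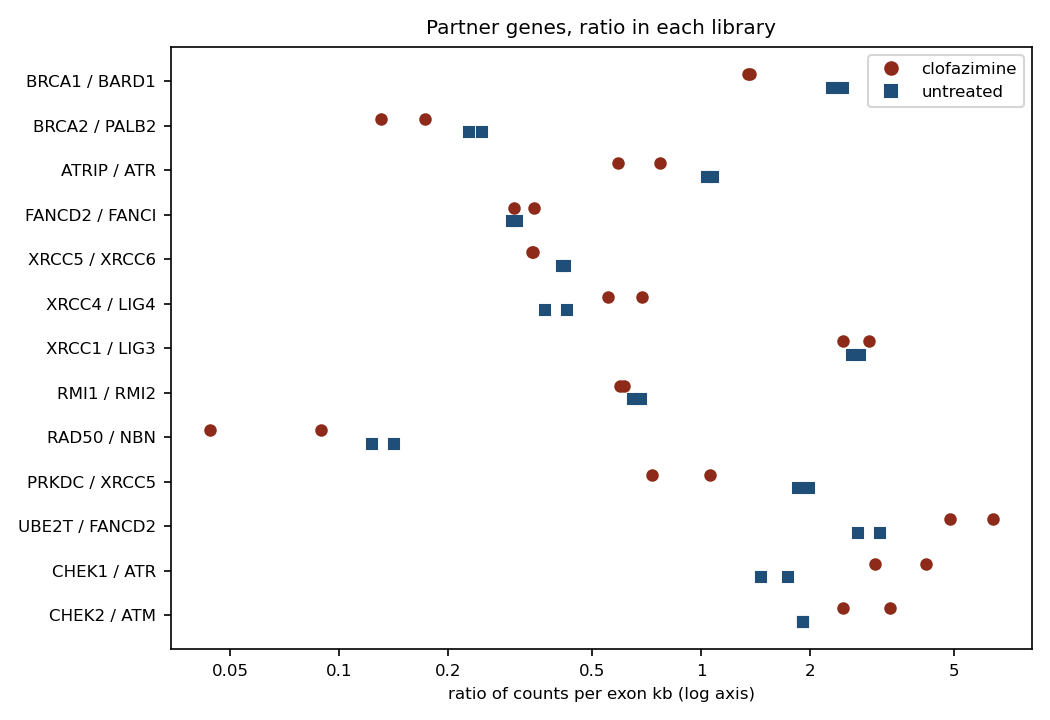
Ratio of counts per kb of exon for 13 pairs of repair genes, on a log axis, with clofazimine libraries as circles above untreated libraries as squares (2 each). The groups lie apart for BRCA1 to BARD1 (1.36 and 1.35 against 2.47 and 2.29) and overlap only for FANCD2 to FANCI and XRCC1 to LIG3. The pairs were chosen after the values were seen, which makes a gap likely.

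Longer repair genes had lower fold changes. Across the 48 genes the Spearman correlation of log2 fold change with exon length was -0.44, beside -0.15 across all 16388 genes tested, a description in which the points share the same 4 libraries. The 24 genes with 1652 to 5634 bases of exon had a median of 0.08, with 7 higher and 5 lower, and the 24 genes with 6067 to 23972 bases a median of -0.40, with 2 higher and 12 lower. Between the clofazimine libraries there was a relation with length as well: across the 48 genes the log2 ratio of clofazimine replicate 2 to replicate 1 correlated with exon length at -0.59. Across all genes tested the Spearman correlation of replicate 2 minus replicate 1 with exon length was -0.195 for clofazimine and -0.0523 for untreated libraries. After correction for length and GC the medians were -0.10 for the shorter and -0.29 for the longer genes, and 9 repair genes were higher and 20 lower. Among the 48 genes the Spearman correlation of log2 fold change with GC content was 0.36 after the correction, beside -0.051 under TMM. BRCA2 was then at -1.18, PARP1 at -1.05, BRIP1 at -1.03, ATRIP at -0.90 and PRKDC at -0.76, and FANCE was at 1.11, RAD52 at 0.99 and RAD54B at 0.99. Genomic span showed no such relation among the 48 genes (-0.044).

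**Figure D4:**
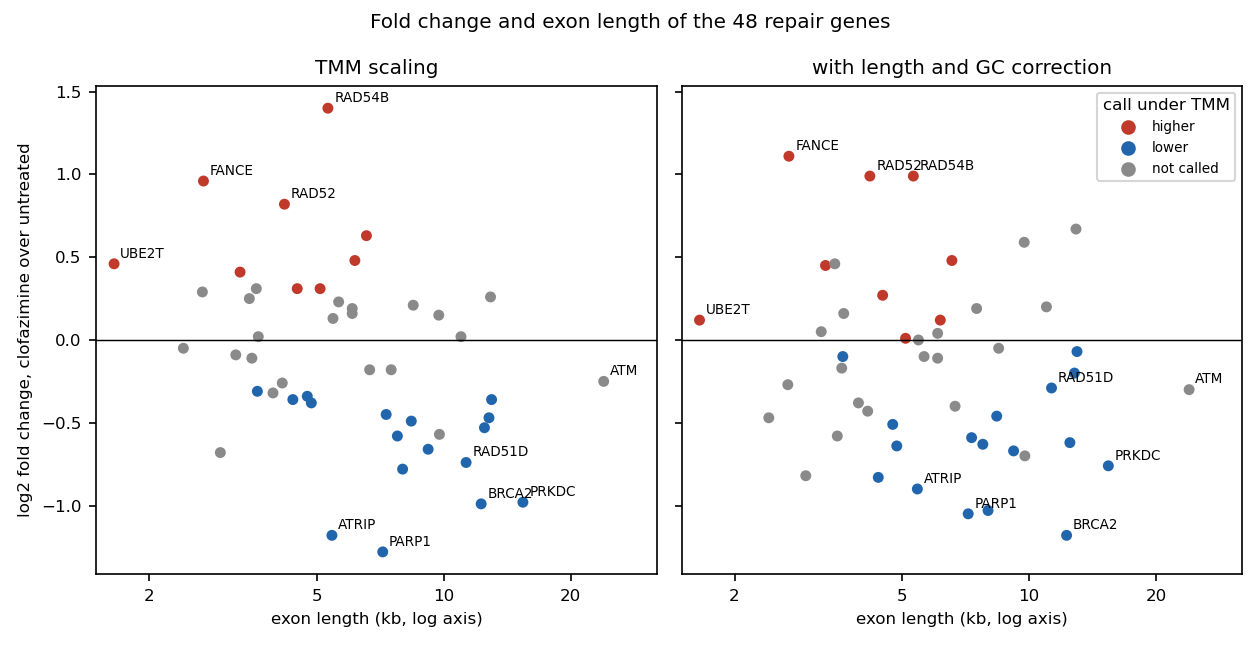
Log2 fold change, clofazimine over untreated, against exon length in kb (log axis) for the 48 repair genes, under TMM scaling on the left and after correction for length and GC content on the right. Colours give the call under TMM, and the Spearman correlation is -0.44 on the left and -0.20 on the right, with PARP1, BRCA2 and PRKDC low in both. The correlation with GC content is 0.36 after the correction, beside -0.051 under TMM.

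A further 89 genes of the same pathways, chosen by role, had 87 tested, of which 26 rose (29.9%), 30 fell (34.5%) and 31 were not called. These shares were near those over all genes tested, 29.5% higher and 30.4% lower. The median of these pathway genes was -0.08. It was 0.03 without clofazimine replicate 1, -0.15 without untreated replicate 2, -0.19 after correction for length and GC and -0.25 under library totals. Those that rose most, at a mean of at least 1 CPM, were SHLD3 and SHLD1 of the shieldin complex, which protects ends from resection, HUS1 of the checkpoint clamp and the nuclease subunit MUS81. HUS1 had 41.7 and 46.5 CPM in clofazimine libraries, against 14.0 and 12.5 CPM in untreated libraries (1.73 ± 0.14, edgeR adjusted p 5.28e-08). MUS81 had 63.6 and 66.4 CPM after clofazimine and 30.0 and 25.2 CPM untreated (1.24 ± 0.13, edgeR adjusted p 7.77e-07). SHLD3 was at 5.67 and 6.23 CPM after clofazimine and 1.83 and 1.70 CPM untreated (1.75 ± 0.28), and SHLD1 at 2.72 and 3.47 CPM after clofazimine and 1.43 and 1.02 CPM untreated (1.34 ± 0.36). Those that fell most were GEN1, a resolvase, RPA1, the large subunit of the single-strand binding protein, POLQ, the polymerase of alternative end joining, and the helicase RECQL5. RPA1 had 99.8 and 108 CPM after clofazimine and 257 and 276 CPM untreated (-1.36 ± 0.12, edgeR adjusted p 1.48e-07). POLQ had 24.9 and 22.9 CPM after clofazimine and 64.2 and 55.4 CPM untreated (-1.33 ± 0.13, edgeR adjusted p 4.70e-07). GEN1 had 4.04 and 4.65 CPM after clofazimine and 19.3 and 14.3 CPM untreated (-1.94 ± 0.21), and RECQL5 had 15.9 and 17.5 CPM after clofazimine and 45.9 and 37.5 CPM untreated (-1.32 ± 0.15). In all 8 of these genes the groups lay apart, which picking the largest called changes makes likely. Over all genes tested the groups did not overlap for 80.8%, in either direction. Named after their values were seen, the other clamp subunits RAD1 (0.82) and RAD9A (0.77) rose with HUS1, while the clamp loader subunit RAD17 (-1.11) fell.

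Since repair genes follow the cell cycle, 24 genes of proliferation were set beside them. Of these 7 rose, 10 fell and 7 were not called, 70.8% called against a background of 59.9%. By direction 29.2% were higher and 41.7% lower, against 29.5% and 30.4% over all genes tested. The summed level of the proliferation genes was 5338 and 5202 CPM in clofazimine libraries and 5778 and 5847 CPM in untreated libraries. The summed level of the 48 repair genes was 4182 and 3992 CPM after clofazimine and 5280.1 and 5067 CPM untreated, and without PRKDC it was 3257 and 3285 CPM after clofazimine and 3629.7 and 3492 CPM untreated. As examples, CCNE1, a cyclin of S phase entry, fell most of the 24 (-1.61), and CCNB1, a mitotic cyclin, rose (0.43). MKI67 had 445 and 246 CPM after clofazimine and 571 and 559.6 CPM untreated. The part of the cell cycle in the changes of the repair genes was not tested.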

How the data were processed

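RNA was measured in 2 clofazimine and 2 untreated libraries of polyadenylated RNA made with an Illumina TruSeq kit, per the labels' protocols. The authors deposited raw counts per gene as whole numbers for 58735 Ensembl identifiers, per the file headers. Fastp and GRCh38 were used, per the submitters' processing notes. Not given in the sources used here are the aligner, counter, strand setting and annotation. Groups came from the sample titles, and control columns were matched by number to the titles that read Wildtype.

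The quasi-likelihood test of edgeR 4.0.16 (R 4.3.3) was run on these counts with group as the only term, on the 16388 genes that filterByExpr left (count of at least 10, total of at least 15). TMM factors lay between 0.936 and 1.07. Benjamini-Hochberg adjustment covered all genes tested, and an adjusted p under 0.05 was a call. Standard errors are the log2 fold change divided by the square root of F. Symbols, coordinates and exon lengths came from GENCODE 29 (GRCh38), and GC content from its transcripts.

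A count of 0 allows up to 3 counts, or 0.170 to 0.233 CPM, and this limit covers counting error only, with no molecular identifiers to count molecules. The common dispersion gave a coefficient of variation of 9.91%. No replicate pair was as alike as repeat counts of 1 library: chi-square over degrees of freedom was 13.1 (clofazimine) and 6.40 (untreated). The fit was tested on simulated data with known changes. It recovered 40.3% of 1.5-fold, 65.7% of 2-fold and 89.4% of 4-fold changes, with 4 false calls among 134. A gene not called may therefore still have changed, also by 2-fold or more. Far fewer genes were called in the simulation than in the real data, so these rates may differ there.

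Alternatives were DESeq2 1.42.0 size factors and Wald test, library totals, a 1 CPM filter (in 2 libraries) or none, and limma-voom 3.58.1. Further ones were a replicate block, a correction for length and GC, both together, and leaving out each library. For the correction, each library's log2 CPM, less the gene's mean over all libraries, was smoothed on exon length and GC content (mgcv 1.9.3). The smooth of each library was taken off as an offset. The members and lists were chosen with earlier results of these data known. Every member is named. Library values are given for the member called with the largest change each way in each role class (or, with none called, the smallest p), the 3 with the highest levels per exon length, every member whose call ended under an alternative, and further members chosen after their values were seen. Of the other pathway genes with a mean of at least 1 CPM, the 4 called with the largest rise and the 4 with the largest fall are named.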

Additional observations from a re-analysis of the deposited data

How the results depend on the processing

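The 12 calls named as holding kept their direction and passed the test under all 13 alternatives, and no repair gene's called change was reversed. Among the 48 repair genes the replicate block ended the calls of CHEK2 and LIG4 and made RAD50 (-0.58) a call, with 8 higher and 17 lower. Deviations of same-numbered libraries correlated at -0.0455 across genes, so the numbers were not taken as pairs, and the block changed no other call.

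Under library totals 4 repair genes were higher at a median of -0.31, in homologous recombination 2 higher and 10 lower (-0.31), in the Fanconi pathway 1 higher (-0.22), in end joining 0 higher (-0.04), in mismatch repair 1 lower (-0.32) and in the checkpoint 1 higher, with the other pathway genes at -0.25 and all genes at -0.20. With the length and GC correction, with or without the replicate block, homologous recombination had 2 higher, end joining 3 higher and mismatch repair 1 lower, and the medians were -0.17 for the Fanconi pathway, -0.07 for end joining (-0.08 with the block), -0.09 for mismatch repair, -0.19 for the other pathway genes and 0.00 for all genes. With the block and the correction together the checkpoint had 1 higher. Without a filter the Fanconi pathway had 1 higher, end joining 2 lower and the checkpoint 1 higher, and the median of all genes was -0.11. With DESeq2's Wald test end joining had 2 lower and the checkpoint 1 higher, and all genes a median of -0.01, as with its size factors. The checkpoint also had 1 higher with the 1 CPM filter, where all genes were at -0.02 and the Fanconi median at 0.04, and with the block. The causes were not tested.

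Leaving out 1 library gave 4 to 8 repair genes higher and 11 to 17 lower, at medians of -0.15 to -0.08. The counts ran from 2 to 4 higher in homologous recombination, 1 to 2 higher and 2 to 4 lower in the Fanconi pathway, 0 to 2 higher and 2 to 3 lower in end joining and 0 to 1 higher in the checkpoint. The medians ran from -0.17 to -0.08 in homologous recombination, -0.51 to -0.18 in the checkpoint, -0.15 to 0.06 in the Fanconi pathway, 0.06 to 0.16 in end joining, -0.15 to 0.03 for other pathway genes and -0.06 to -0.02 for all genes. With 1 library in a group, it is assumed to vary like the other group. FANCF, RAD50, XRCC4 and RAD54B were under 10 CPM in each library.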

Other observations

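Among pathway genes outside the 48, NHEJ1, which encodes the end-joining factor XLF, had 0 and 1 counts after clofazimine and 0 and 1 untreated, with 65.4% of its exon bases shared with AC068946.1. It did not pass the filter for testing, and no source used here gives the counting rule.

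The BRCA1-A complex, which holds BRCA1 at ubiquitin marks around a break, had members on either side. UIMC1, which encodes its ubiquitin-binding subunit RAP80, had 86.4 and 97.2 CPM in clofazimine libraries and 46.2 and 39.7 CPM in untreated libraries (1.10 ± 0.13, edgeR adjusted p 1.90e-06). BABAM1 was also higher (0.67 ± 0.14), while the scaffold ABRAXAS1 was lower (-0.66 ± 0.27, edgeR adjusted p 0.0462). The ABRAXAS1 call lay near the threshold, and its values under the alternatives are not given here. Of its 7777 exon bases 1956 lie opposite other genes, and BABAM1 shares 850 of 2607 with AC010463.1 on the same strand. The listed subunits BRCC3 and BABAM2 are not described here. At the replication fork TIMELESS (-0.97 ± 0.12) and CLSPN (-0.94 ± 0.13), which help ATR signal, were lower, and TIPIN, the partner of TIMELESS, was higher (1.05 ± 0.16). These genes were named after their values were seen.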
